A study of Mus musculus with 15 samples.

Results

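Voltage-gated calcium channel subunits were followed in nuclear RNA of parvalbumin neurons, fast-spiking inhibitory cells of the mouse cerebral cortex. The set is 10 genes taken by name, of 57282 gene symbols in the count tables, and all 10 had a row in each of the 15 tables. It holds 4 beta subunits (Cacnb1, Cacnb2, Cacnb3 and Cacnb4), 4 pore-forming subunits (Cacna1a, Cacna1b, Cacna1c and Cacna1e) and 2 alpha2delta subunits (Cacna2d1 and Cacna2d2). The question was whether Cacnb3 moves alone or together with the other beta subunits when thyroid hormone signalling changes.

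All mice were adults and carried PvCre, a Cre recombinase driven in parvalbumin neurons, and the ROSA-tomato-lox reporter, which labels the nuclei that were then sorted from individual cortices. PTU_TH mice (n = 4; Thra+/+) ate propylthiouracil (PTU), a blocker of thyroid hormone synthesis, for 2 weeks and had an intraperitoneal injection of thyroid hormones 24 h before dissection. PTU mice (n = 3; Thra+/+) ate the same drug for 2 weeks without the injection. Mut mice (n = 4) were untreated and carried the floxed ThraAMI allele, from which cells with Cre express a dominant negative thyroid hormone receptor alpha. Ctrl mice (n = 4; Thra+/+) were their untreated littermates. PTU acts on the whole animal, whereas the mutation is limited to cells that have expressed PvCre. Replicates are numbered in the sample titles and came from individual cortices; nothing else states that they are separate animals.

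A voltage-gated calcium channel is built around 1 pore-forming alpha1 subunit, which senses voltage and conducts calcium. A cytoplasmic beta subunit binds the pore, promotes its delivery to the membrane and tunes its gating, and an extracellular alpha2delta subunit raises its density at the surface and at synapses. In parvalbumin neurons, calcium entry through the P/Q-type channel drives transmitter release from the terminals onto target cells.

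The PTU_TH and PTU libraries held 12957838 to 19141683 counts and the Mut and Ctrl libraries 22333742 to 32571175. Levels are given as CPM, the count of a gene divided by its library's total and scaled alike for all libraries. All 10 markers listed for parvalbumin neurons were above 1 CPM in each library and summed to 5895 to 9515 CPM. The list includes Gad1, Gad2 and Slc32a1, which other inhibitory neurons also express, and Pvalb itself had 63.8 to 144.9 CPM. The 10 markers of excitatory neurons summed to 172 to 240 CPM, 6 of oligodendrocytes to 74.6 to 202.8 CPM and 7 of astrocytes to 20.3 to 48.7 CPM. Hr, a corepressor gene induced by thyroid hormone, had 43.1 to 49.5 CPM in PTU_TH and 2.5 to 5.9 CPM in PTU, and 0.46 to 4.1 CPM in Mut and 12.5 to 15.4 CPM in Ctrl. Thra, the gene of the altered allele, had 29.0 to 37.4 CPM in Mut and 48.2 to 62.8 CPM in Ctrl. The libraries also differed in the share of counts in genes spanning over 100 kb, from 24.9% to 40.7%, and 8 of the 10 subunit genes are that long. Since these are sorted bulk nuclei, fewer nuclei that express a gene and less RNA per nucleus cannot be told apart.

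Cacnb3 is the compact member, spanning 13.7 kb on chromosome 15 (98630840 to 98644529, plus strand, GRCm38). The stretches upstream of its 2 RefSeq starts (GRCm38.p6) are shown because Cacnb3 carried the responses described next; each is the 250 bases before a start on the plus strand, 5′ to 3′, with CG dinucleotides in capitals.
Cacnb3 first start, chr15:98632078-98632327: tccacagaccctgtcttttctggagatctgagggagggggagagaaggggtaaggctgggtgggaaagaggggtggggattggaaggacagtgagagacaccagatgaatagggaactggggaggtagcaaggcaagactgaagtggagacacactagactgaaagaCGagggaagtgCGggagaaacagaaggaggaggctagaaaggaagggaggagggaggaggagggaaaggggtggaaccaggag
Cacnb3 second start, chr15:98634517-98634766: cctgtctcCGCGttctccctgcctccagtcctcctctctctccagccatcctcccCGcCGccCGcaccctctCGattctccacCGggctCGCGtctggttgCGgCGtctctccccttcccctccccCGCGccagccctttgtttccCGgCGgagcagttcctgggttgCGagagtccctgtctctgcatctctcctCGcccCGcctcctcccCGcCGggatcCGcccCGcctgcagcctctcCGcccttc
The first stretch holds 2 CG dinucleotides at a GC content of 56%, and the second 23 at 70.4%. The motif AGGTCA, the core of thyroid hormone receptor sites, was searched on both strands from 250 bases before to 50 bases after each start. It was found in 0 of the 16 entries of the 9 subunit genes with an entry, which leave out Cacna1a, and in 16.3% of all 32851 RefSeq promoters. A pair of such motifs in the same direction with 4 bases between them was in 5 of the 32851 and in 0 of the 16 entries. The counts do not tell from which start the Cacnb3 reads came.

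Cacnb3 was higher in PTU mice given thyroid hormone, and it was the only beta subunit of the 4 to pass the test. Cacnb3 had 94.8, 94.2, 103.3 and 95.9 CPM in the PTU_TH libraries, against 23.0, 35.7 and 31.3 CPM in the PTU libraries. Every PTU_TH library was above every PTU library, as was the case for 3.43% of all genes tested, and the PTU_TH values lay within 1.10-fold of each other. Cacnb3 was 3.35-fold higher in PTU_TH, a log2 fold change of 1.75 ± 0.13 (SE; adjusted p = 0.00251 edgeR quasi-likelihood test, Benjamini-Hochberg adjusted over 15288 genes). In that comparison 0.281% of all genes tested passed and 0.255% passed as higher, while 1 of the 10 subunits passed.

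The other 3 beta subunits overlapped between PTU_TH and PTU. Cacnb1, the beta subunit best known from skeletal muscle and also expressed in brain, had 30.8, 29.5, 34.6 and 31.8 CPM in PTU_TH, against 29.6, 33.4 and 38.3 CPM in PTU. The groups overlapped, and the log2 fold change was -0.05 with a 95% interval of -0.30 to 0.20. Cacnb2, a partner of L-type channels in heart, had 151.3, 183.0, 125.0 and 90.4 CPM in PTU_TH, against 161.4, 105.9 and 106.7 CPM in PTU. Its range in PTU_TH enclosed that of PTU, with a log2 fold change of 0.19 (-0.51 to 0.88). Cacnb4, whose loss causes ataxia and seizures in the lethargic mouse, had 345.9, 486.5, 248.1 and 212.2 CPM in PTU_TH, against 427.5, 220.9 and 205.8 CPM in PTU. These ranges overlapped too, with a log2 fold change of 0.22 (-0.70 to 1.14). The 95% interval of Cacnb3, 1.45 to 2.04, lay above those of the other 3. In this fit the intervals of Cacnb2 and Cacnb4 still include rises of up to 0.88 and 1.14 on the log2 scale, whereas that of Cacnb1 ends at 0.20.

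**Figure D1:**
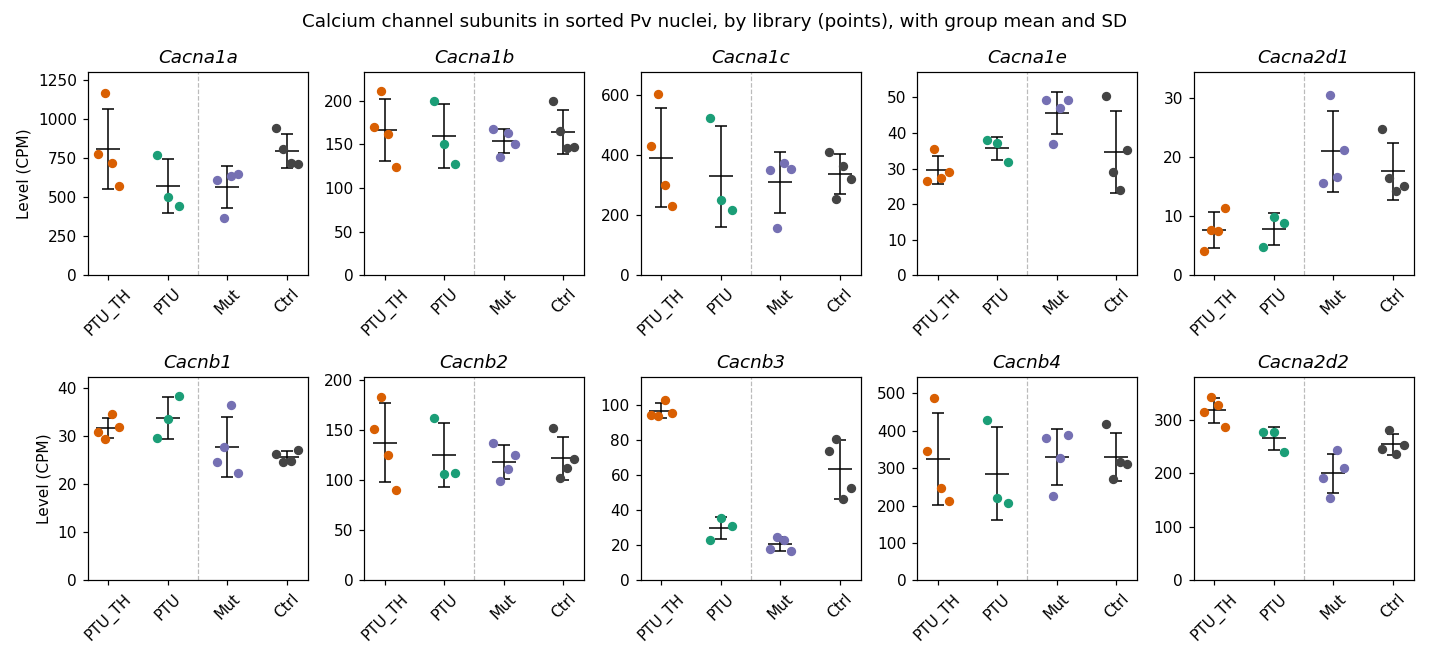
Level of each calcium channel subunit in CPM (y axes, linear and starting at 0) by group (x axes). Points are libraries, bars are the group mean and SD, and the dashed line separates the 2 sets of count tables; Cacnb3 lies at 94.2 to 103.3 CPM in PTU_TH against 23.0 to 35.7 in PTU, and at 16.7 to 24.7 in Mut against 46.3 to 80.8 in Ctrl.

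Of the pore-forming subunits 0 of 4 passed in PTU_TH against PTU by edgeR, 0 by DESeq2 and 0 by limma-voom, and 0 had an unadjusted edgeR p under 0.05. The shares of all genes tested were 1.61% by DESeq2, 1.12% by limma-voom and 7.37% at that unadjusted p. Cacna1a, the P/Q-type pore and the highest of the 4 per kb of exon, had 777.0, 1164.2, 714.5 and 571.2 CPM in PTU_TH, against 768.3, 499.7 and 444.9 CPM in PTU. The groups overlapped, with a log2 fold change of 0.54 (95% interval -0.24 to 1.32; adjusted p = 0.885; edgeR quasi-likelihood test, Benjamini-Hochberg adjusted). Cacna1b, the N-type pore, and Cacna1c, an L-type pore, had log2 fold changes of 0.11 (-0.49 to 0.70) and 0.29 (-0.74 to 1.31). Cacna1e, the R-type pore, had -0.22 (-0.63 to 0.18), and each of these 3 overlapped between the groups.

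The alpha2delta pair did not pass either, and Cacna2d2 was far more abundant than Cacna2d1. Cacna2d2, which is mutated in the ducky mouse with absence epilepsy, had 314.8, 342.0, 327.1 and 286.0 CPM in PTU_TH, against 277.6, 277.0 and 240.3 CPM in PTU. These ranges did not overlap, as was the case in this direction for 3.43% of all genes tested, and the log2 fold change of 0.30 (-0.06 to 0.67) did not pass (adjusted p = 0.802; edgeR quasi-likelihood test, Benjamini-Hochberg adjusted). Cacna2d1, like Cacna2d2 a binding site of gabapentin, had 4.0 to 11.4 CPM in PTU_TH and 4.7 to 9.8 CPM in PTU, with a log2 fold change of 0.01 (-0.74 to 0.76). Over the 10 subunits 8 log2 fold changes were positive and 2 negative, with a median of 0.20. Of all genes tested 49.5% were positive, with a median of -0.003. Without PTU_TH replicate 2, the values of Cacna1b, Cacna1c, Cacnb2, Cacnb4 and Cacna2d1 were negative, so the count of positive values depends on that library.

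With the dominant negative receptor the direction was opposite: Cacnb3 was lower in Mut, and the other beta subunits did not pass. Cacnb3 had 18.1, 24.7, 23.2 and 16.7 CPM in the Mut libraries, against 74.2, 80.8, 46.3 and 52.6 CPM in the Ctrl libraries. The highest Mut library stayed below the lowest Ctrl library, as was the case for 3.33% of all genes tested. The log2 fold change was -1.64 ± 0.20 (SE; adjusted p = 0.00708 edgeR quasi-likelihood test, Benjamini-Hochberg adjusted over 16949 genes), so that Ctrl was 3.11-fold higher. In this comparison 0.348% of all genes tested passed and 0.224% passed as lower, while again 1 of the 10 subunits passed. Without Mut replicate 1 the change of Cacnb3 was -1.59 and missed the threshold (adjusted p = 0.0505 by the same edgeR test), leaving 0 subunits called.

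Cacnb4 averaged 329.8 ± 75.2 CPM in Mut and 329.8 ± 63.0 CPM in Ctrl (SD, n = 4 each), a log2 fold change of -0.01 (95% interval -0.46 to 0.45). Cacnb2 averaged 118.0 ± 16.7 CPM in Mut and 121.8 ± 21.4 CPM in Ctrl, a change of -0.06 (-0.42 to 0.30). Cacnb1 had 24.7, 27.6, 36.4 and 22.2 CPM in Mut, against 26.2, 24.7, 24.9 and 27.1 CPM in Ctrl, a change of 0.10 (-0.28 to 0.47). All 3 overlapped between the groups, and the interval of Cacnb3, -2.08 to -1.19, lay below each of theirs.

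**Figure D2:**
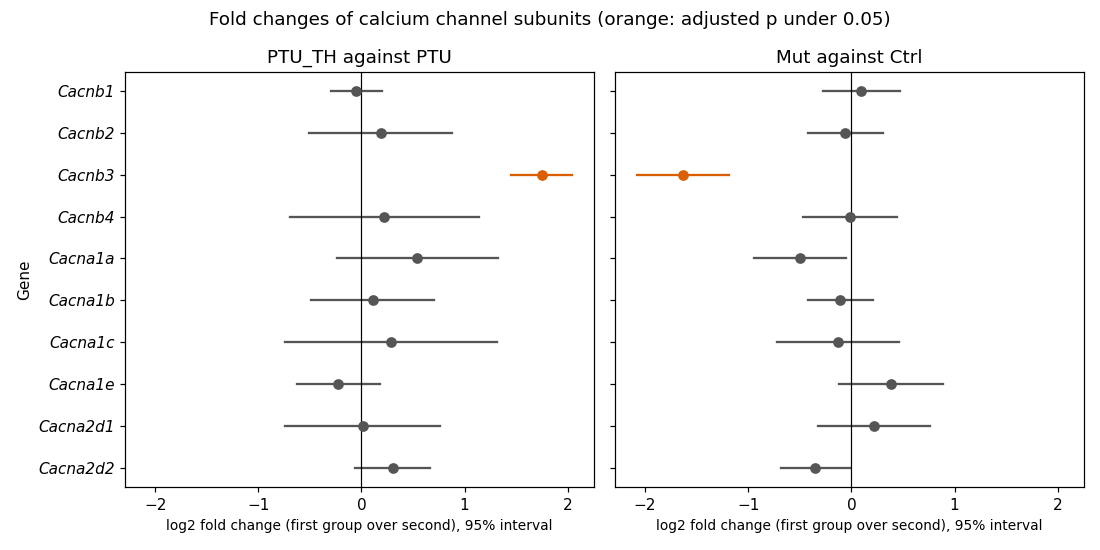
log2 fold change of each subunit (x axis) with its approximate 95% interval, for PTU_TH against PTU (left) and Mut against Ctrl (right); orange marks genes with an adjusted p under 0.05 by edgeR. Cacnb3 stands at 1.75 and -1.64, and the other 9 subunits lie between -0.50 and 0.54.

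Cacna1a came nearest to Cacnb3 among the other subunits in Mut. It had 610.5, 365.3, 634.6 and 647.4 CPM in Mut, against 942.5, 806.0, 717.7 and 711.3 CPM in Ctrl. The groups did not overlap, as in this direction for 3.33% of all genes tested, and the change of -0.50 (-0.95 to -0.05) did not pass over all genes (adjusted p = 0.501; edgeR quasi-likelihood test, Benjamini-Hochberg adjusted). Cacna2d2 had 191.9, 154.2, 243.6 and 209.1 CPM in Mut, against 245.5, 280.3, 236.1 and 253.5 CPM in Ctrl. Only Mut replicate 3 reached into the Ctrl range, and the change was -0.35 (-0.68 to -0.02, with adjusted p = 0.534 in the edgeR test). At an unadjusted edgeR p under 0.05 there were 3 of the 10 subunits, Cacnb3, Cacna1a and Cacna2d2, against 8.74% of all genes tested. In PTU_TH against PTU there was 1 of the 10, Cacnb3, against 7.37%.

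Cacna1e had 49.3, 36.9, 47.1 and 49.3 CPM in Mut, against 50.4, 29.0, 23.8 and 35.1 CPM in Ctrl. Its change of 0.38 (-0.12 to 0.89) rested on 3 of the 4 Ctrl libraries lying below every Mut library. Cacna1b and Cacna1c had changes of -0.11 (-0.43 to 0.21) and -0.13 (-0.72 to 0.46), and Cacna2d1 of 0.22 (-0.33 to 0.76). Of the 10 subunits 3 had positive and 7 negative values, with a median of -0.08. Of all genes tested 52.3% were positive, with a median of 0.01.

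In the makeup of beta subunit reads, counted per kb of exon, Cacnb3 took a varying part. It gave 29.4%, 23.9%, 36.5% and 38.9% of these reads in PTU_TH, against 7.96%, 18.2% and 16.5% in PTU. It gave 7.18%, 13.7%, 9.87% and 6.74% in Mut, against 22.4%, 31.7%, 18.9% and 20.8% in Ctrl. Neither pair of groups overlapped, as was already so for the CPM of Cacnb3. Cacnb2 and Cacnb4, which enter the total, are among the genes spanning over 100 kb. Within PTU_TH and within PTU the Cacnb3 part was lower the higher a library's share of counts in such genes. In PTU_TH it was 38.9% at a share of 24.9% and 23.9% at a share of 40.7%. The order was not exact in Mut and Ctrl. The other 3 beta subunits summed to 53.4 ± 16.2 CPM per kb in PTU_TH (SD, n = 4) and 48.6 ± 15.4 in PTU (n = 3), and to 51.8 ± 9.12 in Mut and 51.7 ± 8.74 in Ctrl (n = 4 each). Cacnb4 was the most abundant beta subunit per kb in each group mean, at 36.1 ± 13.7 CPM per kb in PTU_TH, 31.8 ± 13.8 in PTU, 36.8 ± 8.39 in Mut and 36.8 ± 7.03 in Ctrl. Cacnb3 came next in PTU_TH (24.2 ± 1.05 CPM per kb) and in Ctrl (15.8 ± 4.16), and had the lowest mean of the 4 in Mut (5.15 ± 0.97), within the SD of Cacnb1 (6.12 ± 1.36). In PTU, Cacnb3 (7.48 ± 1.60 CPM per kb) and Cacnb1 (7.46 ± 0.96) differed by less than their SDs. For Cacnb4, 16% of the exonic bases are shared with the annotated gene A430018G15Rik, and for Cacnb2, 7.3% with other annotated genes, so their counts are less certain. Cacnb1 shares 1.8% and Cacnb3 shares 0. The counting mode was not stated, so whether reads from introns were counted is unknown, and Cacnb4 spans 248.5 kb against 13.7 kb for Cacnb3. Ranks of genes per kb of exon, here and below, hold for these counts only.

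**Figure D3:**
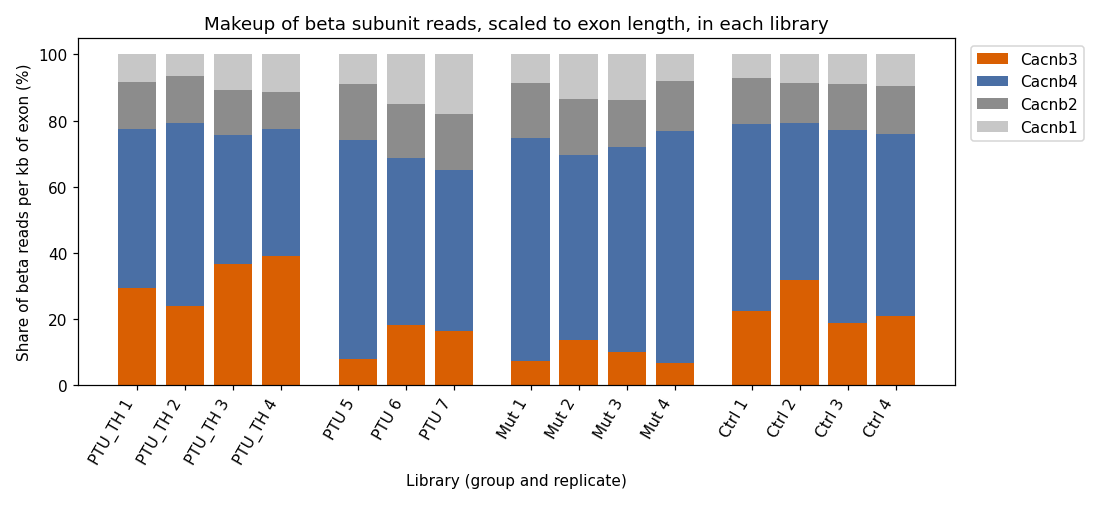
Share of beta subunit reads per kb of exon (y axis, %) taken by each gene in each library (x axis). The Cacnb3 part is 23.9% to 38.9% in PTU_TH, 7.96% to 18.2% in PTU, 6.74% to 13.7% in Mut and 18.9% to 31.7% in Ctrl.

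Among all subunits, per kb of exon, Cacna1a was the highest in each group mean (70.7 ± 22.2 CPM per kb in PTU_TH, 49.4 ± 11.7 in Mut and 69.6 ± 9.44 in Ctrl, with 39.0 to 67.3 over the PTU libraries). Cacna2d2 followed in PTU_TH (39.9 ± 2.99 CPM per kb) and PTU (33.3 ± 2.69), within the SD of Cacnb4, while in Mut (25.1 ± 4.68) and Ctrl (31.9 ± 2.39) its mean was below that of Cacnb4. Cacna1b (15.5 to 16.8 CPM per kb over the 4 group means) and Cacna1c (14.6 to 18.5) did not differ beyond their spread. Cacna1e (1.17 to 1.81) and Cacna2d1 (0.61 to 1.68) were the lowest in every group mean.

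The summed level of the 8 subunit genes longer than 100 kb differed widely among libraries of 1 group. It ran from 1555 to 3034 CPM in PTU_TH and from 1381 to 2400 CPM in PTU, and it ran from 1202 to 1945 CPM in Mut and from 1914 to 2444 CPM in Ctrl. The share of all counts in genes over 100 kb was 34.1%, 40.7%, 28.4% and 24.9% in PTU_TH and 39.6%, 25.7% and 25.8% in PTU, and it was 36.7%, 27.4%, 34.6% and 34.6% in Mut and 39.7%, 29.5%, 33% and 31.6% in Ctrl. In PTU_TH the library with the highest share, replicate 2, had the highest summed level of the 8 genes, and replicate 4 had the lowest of both. The order was less exact elsewhere: Mut replicate 1 had the highest share of its group and 1903 CPM, against 1916 and 1945 CPM in Mut replicates 3 and 4. Ctrl replicate 2 had the lowest share and 1925 CPM, against 1914 CPM in Ctrl replicate 4, and PTU replicate 6 had the lowest share and 1552 CPM, against 1381 CPM in PTU replicate 7. Cacna2d1 and Cacna1e depart from this order among the 8. In PTU_TH, Cacna2d1 had its highest value, 11.4 CPM, in replicate 4, and Cacna1e its lowest, 26.5 CPM, in replicate 1. Cacnb3 did not follow this order in PTU_TH, being within 94.2 to 103.3 CPM in all 4 libraries. In PTU it ran the other way, with 35.7, 31.3 and 23.0 CPM at shares of 25.7%, 25.8% and 39.6%. Its highest values in Mut and Ctrl, 24.7 and 80.8 CPM, were at the lowest shares, 27.4% and 29.5%. The Ctrl library with the highest share, 39.7%, had 74.2 CPM, the next highest of its group.

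With the long-gene share as a covariate, Cacnb3 kept its change in PTU_TH against PTU (1.75) and in Mut against Ctrl (-1.64). In PTU_TH against PTU that fit called 1011 genes and 3 subunits, adding Cacna1a (0.41; adjusted p = 0.00139) and Cacna2d2 (0.26; adjusted p = 0.0331), both in the edgeR quasi-likelihood test, Benjamini-Hochberg adjusted. The other beta subunits had -0.05 (Cacnb1), 0.06 ± 0.08 (SE; Cacnb2) and 0.08 ± 0.06 (SE; Cacnb4) in it and were not called. In Mut against Ctrl it called Cacnb3 alone of the 10. The summed level of 4 genes of the Y chromosome was above a threshold of 50 CPM (292 to 476 CPM) in PTU_TH replicates 3 and 4, PTU replicates 6 and 7, Mut replicates 1, 2 and 3 and Ctrl replicate 2, and at most 3.19 CPM in the others. Among libraries above the threshold Cacnb3 had 103.3 and 95.9 CPM in PTU_TH against 35.7 and 31.3 in PTU, and 18.1, 24.7 and 23.2 CPM in Mut against 80.8 in Ctrl. Among libraries below it Cacnb3 had 94.8 and 94.2 CPM in PTU_TH against 23.0 in PTU, and 16.7 CPM in Mut against 74.2, 46.3 and 52.6 in Ctrl. Since the full groups do not overlap, these values are a description, and PTU below the threshold, Ctrl above it and Mut below it are 1 library each. With the side of the threshold as a covariate, Cacnb3 had 1.76 ± 0.12 (SE) in PTU_TH against PTU and -1.83 ± 0.21 in Mut against Ctrl. In PTU_TH and PTU the libraries above the threshold had long-gene shares of 24.9% to 28.4%, and those below it 34.1% to 40.7%. The side of the threshold and the long-gene share therefore cannot be told apart in PTU_TH against PTU, and these fits are not separate checks there.

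**Figure D4:**
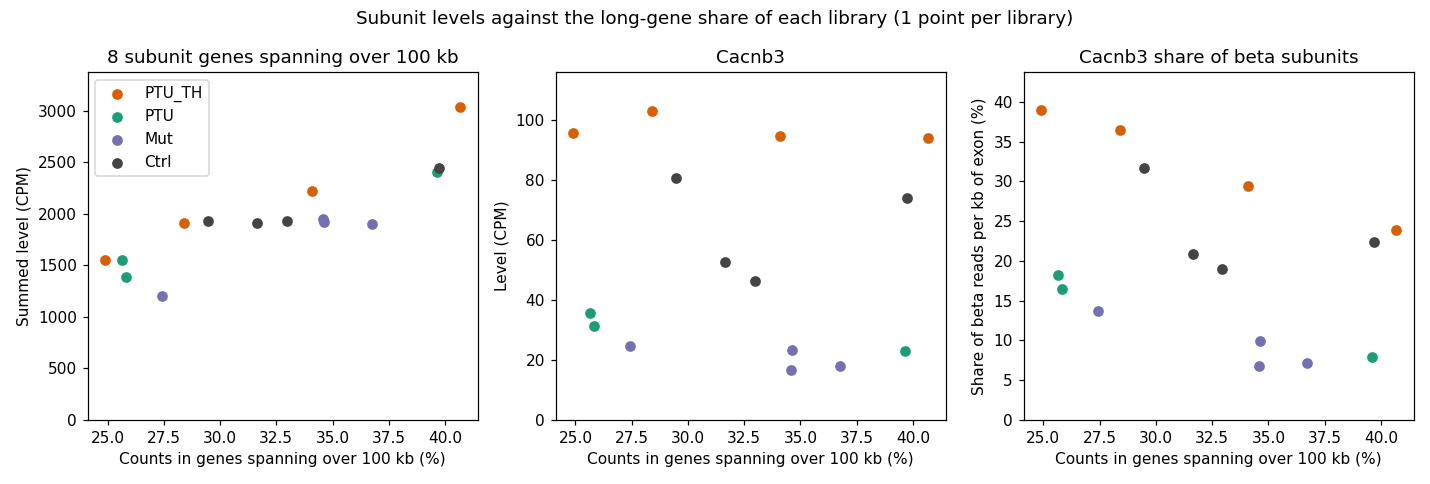
Summed level of the 8 subunit genes over 100 kb (left, CPM), level of Cacnb3 (middle, CPM) and Cacnb3 share of beta subunit reads per kb (right, %) against the share of counts in genes over 100 kb (x axes, %). Each point is 1 library. The summed level is highest in the library with the highest share (3034 CPM at 40.7%). Cacnb3 in PTU_TH stays at 94.2 to 103.3 CPM across shares of 24.9% to 40.7%, and in PTU has 35.7 CPM at 25.7% and 23.0 CPM at 39.6%.

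Pvalb, the calcium buffer that names these neurons, averaged 133.1 ± 12.7 CPM in PTU_TH and 99.2 ± 8.98 CPM in PTU, and 77.9 ± 15.2 CPM in Mut and 119.2 ± 11.5 CPM in Ctrl. Neither difference passed in the main fit (log2 0.47 with adjusted p = 0.277, and -0.63 with adjusted p = 0.0780, by the edgeR quasi-likelihood test, Benjamini-Hochberg adjusted). Pvalb did not overlap between the groups in either comparison, as in these directions for 3.43% and 3.33% of all genes tested. It passed in 2 of 9 and 4 of 10 other settings, and in 0 of 7 and 1 of 8 omissions of 1 library. The 8 markers of other interneurons summed to 170.8 to 293.9 CPM in Mut and 136.7 to 161.6 CPM in Ctrl, without overlap, with 6 of the 8 at 1 CPM or more in every library. In PTU_TH (83.7 to 170.8 CPM) and PTU (121.6 to 178.3 CPM) these sums overlapped. The part of either in the Cacnb3 difference was not tested.

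The remaining channel subunit genes gave 0 calls in both comparisons, out of 12 that passed the filter on low counts in PTU_TH against PTU and 13 in Mut against Ctrl, of 16 listed. At an unadjusted edgeR p under 0.05 there were 2 and 3, against 7.37% and 8.74% of all genes tested. DESeq2 called 0 in both comparisons (1.61% and 2.24% of all genes tested), and limma-voom called 1, Cacna1i, and 0 (1.12% and 1.95%). Cacna1i, a T-type pore, had 57.4, 63.8, 61.5 and 55.2 CPM in PTU_TH, against 42.4, 44.6 and 36.3 CPM in PTU. It had 29.6, 33.3, 36.7 and 26.4 CPM in Mut, against 50.1, 39.4, 39.2 and 54.7 CPM in Ctrl. Its groups did not overlap in either comparison, as in these directions for 3.43% and 3.33% of all genes tested. Its log2 fold changes were 0.58 (adjusted p = 0.257) and -0.56 (adjusted p = 0.252) in the edgeR quasi-likelihood test, Benjamini-Hochberg adjusted. Including Cacna1i, 2 of the tested genes of this list did not overlap in each comparison. Cacna1h, another T-type pore, had 0.55 in PTU_TH against PTU, and Cacng3, a gamma subunit that also serves AMPA receptors, had 0.44 in Mut against Ctrl (adjusted p = 0.493 and 0.380 by the same edgeR test).

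Of 13 tested partners of the channels, which include the vesicle-tethering Rims genes, the beta-binding GTPase gene Gem and the calmodulins, 0 were called in either comparison. At an unadjusted edgeR p under 0.05 there were 2 and 3, against the 7.37% and 8.74% of all genes tested given above. DESeq2 (1.61% and 2.24% of all genes tested) and limma-voom (1.12% and 1.95%) each called 1 in both comparisons, Stac2. Stac2, an adaptor that slows the inactivation of L-type channels, had 160.0, 194.3, 173.0 and 171.6 CPM in PTU_TH, against 87.1, 112.3 and 100.2 CPM in PTU. Stac2 had 77.3, 109.4, 91.2 and 115.7 CPM in Mut, against 126.8, 156.7, 144.2 and 146.3 CPM in Ctrl. It was the partner with the smallest p in both, at log2 0.86 (adjusted p = 0.0509) and -0.56 (adjusted p = 0.115) in the edgeR quasi-likelihood test, Benjamini-Hochberg adjusted. Over all other settings Stac2 passed in 7 of 9 and in 4 of 10, and with 1 library omitted in 0 of 7 and 0 of 8. Cabp1, a neuronal calcium sensor that binds the pore, had 0.37 and -0.46 (adjusted p = 0.498 and 0.319 by the same edgeR test). Neither Stac2 nor Cabp1 overlapped between the groups in either comparison, as in these directions for 3.43% and 3.33% of all genes tested.

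Genes whose levels went most like those of Cacnb3 were ranked by Pearson correlation of log2(CPM + 1) over the 15 libraries after each set of tables was centred on its own mean. The first 5 were Hr (0.956), Dot1l, a histone methyltransferase gene (0.955), Vash2, a tubulin carboxypeptidase gene (0.948), Nfic, a transcription factor gene (0.947), and Acan, the gene of the perineuronal net proteoglycan aggrecan (0.943). These libraries share the group differences, so the values describe a common pattern only. Among the subunits the highest was Cacna2d2 (0.70, rank 236), followed by Cacna1a (0.54, rank 584), and the lowest was Cacna1e (-0.54, rank 9958). Cacna1b (0.16), Cacna1c (0.08) and Cacna2d1 (-0.02) lay between. The other beta subunits had -0.12 (Cacnb1), 0.04 (Cacnb2) and -0.004 (Cacnb4).

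Setting the treated mice beside Ctrl joins 2 sets of tables that differ in gene list (55341 rows for PTU_TH and PTU, 48321 for Mut and Ctrl) and in depth, so the set and the treatment cannot be told apart. In these comparisons 17.0% of all genes tested passed with PTU (12.6% as lower) and 17.8% with PTU_TH (4.72% as higher and 13.1% as lower), and 2 of the 10 subunits passed in each. Cacnb3 was lower in PTU than in Ctrl (log2 -1.13 ± 0.22 SE; adjusted p = 0.00334) and higher in PTU_TH than in Ctrl (0.59 ± 0.17; adjusted p = 0.0285) in the edgeR quasi-likelihood test, Benjamini-Hochberg adjusted. Cacna2d1 was lower in both PTU (-1.23) and PTU_TH (-1.24) than in Ctrl, at 4.7 to 9.8 and 4.0 to 11.4 CPM against 14.2 to 24.6 CPM. Whether that level goes with the PTU diet or with the set of tables cannot be told apart. The other 8 subunits did not pass, with changes from -0.50 (Cacna1a) to 0.35 (Cacnb1) in PTU against Ctrl and from -0.24 (Cacna1e) to 0.31 (Cacna2d2) in PTU_TH against Ctrl. The rise of Cacnb3 above Ctrl in PTU_TH missed the threshold in 4 of the 8 fits that left out 1 library, where edgeR gave an adjusted p of 0.0618 without PTU_TH replicate 1, 0.0728 without PTU_TH replicate 3, 0.0720 without Ctrl replicate 3 and 0.0914 without Ctrl replicate 4. Without PTU replicate 5, the library with the highest long-gene share of its group, 5 subunits passed as lower in PTU than in Ctrl, adding Cacna1a (-0.85), Cacna1c (-0.63) and Cacnb4 (-0.73). Without PTU_TH replicate 4, Cacna2d2 (0.39) passed as higher than in Ctrl. Over all genes, the fits that left out 1 library called 2061 to 4283 genes in PTU against Ctrl and 2380 to 3270 in PTU_TH against Ctrl. The full fits tested 16496 genes in PTU against Ctrl and 15814 in PTU_TH against Ctrl. The share of all genes that passed is not given for each omission, so the added subunits are a description only.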

How the data were processed

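Sorted nuclear RNA was amplified with a SMART-Seq v4 kit and sequenced single-end from Nextera XT libraries, per the labels' protocols. The deposited values are raw counts per gene, 1 table for each library. The submitters' processing notes name Bowtie2 2.5.3, HTSeq and mm10 (GRCm38). Strand setting, counting mode and annotation release were not stated in the sources used here.

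All genes passing filterByExpr (minimum count 10) were fitted with edgeR 4.0.16 in R 4.3.3 (TMM scaling, robust quasi-likelihood, Benjamini-Hochberg adjustment, called at adjusted p under 0.05), each comparison on its own 2 groups. All 10 subunits passed the filter in every comparison. Comparisons across the sets used the 46380 shared symbols. Intervals are approximate. Gene and exon lengths came from GENCODE M21, and promoters from RefSeq. CPM used the table total of each library. On simulated data, 71% of 2-fold and 94% of 4-fold changes were recovered for PTU_TH against PTU, and 78% and 97% for Mut against Ctrl. False calls were 14 of 179 and 11 of 186. The changes were set in randomly drawn genes and each gene was simulated on its own, without a common variation of long genes. These shares are therefore not the recovery to be had for a given subunit. Alternatives were DESeq2 1.42.0, limma 3.58.1 (voom), other scalings, filters and covariates, a replicate block, and leaving out single libraries. The subunits and lists were chosen with earlier results of these data known. The genes named are all 10 subunits, the called members of each other list or the 2 with the smallest p, the 5 genes most like Cacnb3, and Hr, Klf9, Thra and Pvalb. Of these, Klf9 had log2 fold changes of 0.99 in PTU_TH against PTU and -0.59 in Mut against Ctrl, neither called by edgeR; DESeq2 and limma-voom called it in PTU_TH against PTU, and limma-voom in Mut against Ctrl.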

Additional observations from a re-analysis of the deposited data

Results flagged for a closer look

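Of 30 sets of 4 libraries (10 subunits in PTU_TH, Mut and Ctrl), 2 held a library that stood apart by Dixon's test at its 95% critical value. Chance gives about 1 in 20. Both were Mut replicate 2. Cacna1a was lowest there at 365.3 CPM, with the gap to the next library taking 0.869 of the range, and Cacna1c was lowest there at 155.4 CPM, with a gap of 0.896 of the range. The same library had the lowest share of counts in genes over 100 kb of its set (27.4%) and the highest sum of markers of other interneurons (293.9 CPM); their part in these values was not tested.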

How the results depend on the processing

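Cacnb3 kept its direction and its call in 9 of 9 other settings for PTU_TH against PTU (1.67 to 1.76) and in 10 of 10 for Mut against Ctrl (-1.83 to -1.51). It passed in 7 of 7 omissions of 1 library in PTU_TH against PTU (1.64 to 1.87) and in 7 of 8 in Mut against Ctrl (-1.76 to -1.52). For PTU_TH against PTU the long-gene covariate called 3 subunits; genes called numbered 43, against 246 with DESeq2, 171 with limma-voom, 335 with Y-linked counts as a covariate, 1011 with the long-gene covariate and 5 to 29 when 1 library was omitted. For Mut against Ctrl they numbered 59, against 358 with DESeq2, 331 with limma-voom, 196 in a fit of all 4 groups, 90 at a floor of 1 CPM, 31 with Y-linked counts, 210 with the long-gene covariate and 11 to 103 when 1 library was omitted, with 0 to 1 subunits called. Omission of 1 library gave 2061 to 4283 genes and 2 to 5 subunits for PTU against Ctrl, and 1 to 3 subunits for PTU_TH against Ctrl. The causes were not tested.

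Of 892 values of single genes over all settings, 771 kept their direction and call, 35 newly passed, 20 no longer passed and 66 changed sign. Of the 66, 0 belonged to a gene called in that comparison, and their main log2 fold changes were at most 0.29 in size. For PTU_TH against PTU, Cacna2d1 changed sign with upper quartile scaling (-0.0086), in the fit of all 4 groups (-0.0031) and with limma-voom (-0.42). For Mut against Ctrl, limma-voom gave 0.070 for Cacna1b, 0.062 for Cacna1c, 0.10 for Cacnb2 and 0.20 for Cacnb4, and Y-linked counts as a covariate gave 0.10 for Cacna1c, 0.08 for Cacnb2 and 0.19 for Cacnb4. Omission of 1 library in PTU_TH against PTU gave -0.10 to 0.38 for Cacna1b, -0.084 to 0.89 for Cacna1c, -0.077 to 0.013 for Cacnb1, -0.054 to 0.50 for Cacnb2, -0.12 to 0.74 for Cacnb4 and -0.21 to 0.21 for Cacna2d1. In Mut against Ctrl it gave -0.17 to 0.024 for Cacna1b, -0.25 to 0.10 for Cacna1c, -0.074 to 0.18 for Cacnb1, -0.15 to 0.09 for Cacnb2 and -0.10 to 0.16 for Cacnb4. Across the sets it gave -0.63 to 0.20 for Cacna1c in PTU against Ctrl and -0.40 to 0.026 for Cacna1e in PTU_TH against Ctrl.

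Whether replicate numbers pair libraries could not be decided. Same-numbered Mut and Ctrl libraries had correlations of their deviations from the group means of 0.116, 0.202, -0.021 and 0.085. Mut and Ctrl libraries with different numbers had -0.155 to 0.132. Same-numbered PTU_TH and Ctrl libraries had 0.090, -0.208, -0.046 and 0.081, and those with different numbers -0.244 to 0.255. With the number as a replicate block, Cacnb3 had -1.61 in Mut against Ctrl (82 genes called) and 0.63 in PTU_TH against Ctrl (2424 genes called), both still called. For comparisons with PTU, whose numbers no other group shares, no such fit could be made. Without division by exon length, chosen after seeing the data, Cacnb3 gave 17.4% of beta subunit reads in PTU_TH, 6.93% in PTU, 4.37% in Mut and 11.9% in Ctrl.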
